A study of Mus musculus with 39 samples.

Results

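Interferon response genes are the 44 genes of this set, chosen by symbol from a fixed list of genes that cells switch on after an interferon signal. All 44 were found among the 54735 genes of the liver and spleen tables, and 43 of them in liver and 44 in spleen had a mean normalised read count of at least 10, the level required for testing. The member left out in liver was Ifi214, whose values there lay between 0.99 and 17. By role the set holds 3 transcription factors, 3 RNA sensors, 4 DNA sensors, 3 genes of the ISG15 system, 4 IFIT genes, 6 genes of the OAS and PKR group, 5 genes of the Mx, viperin and tetherin group, 6 interferon-inducible GTPases, the chemokine gene Cxcl10 and 9 others.

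Messenger RNA was sequenced from liver and spleen of C57BL/6 mice 4 weeks old. The mice carried a knockout of SXR, also called PXR, a nuclear receptor encoded by Nr1i2 that turns on genes of drug metabolism, or were wild type. PCB-153, a polychlorinated biphenyl that persists in the body, was given around birth and up to that age at a daily dose of about 54 µg per kg, and the comparison mice received the solvent DMSO. Each tissue thus has 4 groups: knockout with PCB-153, wild type with PCB-153, knockout with vehicle and wild type with vehicle, with 5 libraries each except 4 in wild-type vehicle spleens. The labels name no litters and leave unsaid whether each library is a separate mouse, so every p-value given reflects the spread between libraries, which may be partly technical. They do not state which exons the knockout lacks or whether it acts in all cells. Organs were taken whole.

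Liver libraries held 15.23 to 28.65 M reads and spleen libraries 16.1 to 29.52 M. The tissue labels were borne out by marker genes: 8 hepatocyte genes summed to 2088858 to 2774824 normalised counts in livers and to 218 to 12960 in spleens, and 7 B cell genes to 20173 to 44691 in spleens and to 30.1 to 152 in livers. The targeted gene Nr1i2 averaged 862 ± 215 in knockout and 1395 ± 390 in wild-type PCB-153 livers, and 714 ± 192 in knockout and 1572 ± 178 in wild-type vehicle livers (SD, n = 5 each). In spleen it went against the label, at 52.1 ± 5.58 in the PCB-153 spleens labelled knockout and 0.446 ± 0.998 in wild type, and at 55.5 ± 7.90 and 0.567 ± 1.13 (n = 4) in vehicle spleens of those labels. For this reason the spleens of that genotype are named labelled knockout throughout, and each direction between genotypes in spleen depends on that label.

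Interferons act in 2 main ways. Type I interferons act through a complex that holds STAT2 and IRF9 and binds the interferon-stimulated response element in the promoters of antiviral genes. Interferon gamma, made mainly by T cells and natural killer cells, acts through the gamma-activated site in promoters and strongly induces the GTPases that attack vacuoles holding microbes. Many antiviral genes also have a resting level that differs between cell types, so a bulk organ reports both the signal and the make-up of the tissue. Fewer cells of a type and less RNA per cell cannot be told apart in these samples.

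Of the 44 members, 34 had an entry in the RefSeq promoter table (GRCm38.p6; 250 bases before to 50 after the start site). The core of the interferon-stimulated response element, searched on both strands as GAAANNGAAA, was present in 22 of these 34 (64.7%) and in 3.49% of all 27025 promoters of that table. The core of the gamma-activated site, TTCNNNGAA, which reads the same on both strands, was in 7 of 34 (20.6%) and in 8.47% of all. The 120 bases before the start site, 5′ to 3′ along the gene, are given for 3 members that fell in labelled knockout spleens after PCB-153 (Slfn8, Ifi214 and Trim30a), for Igtp, which stood apart in single livers, and for Isg15, a classic member that was not called in any comparison. Of the 7 members that fell there, 6 had a promoter entry and 5 of these the core; Ifi203 had no match and Mx1 no entry. Capitals mark the response element core.
Slfn8, chr11:83020811-83020930, minus strand: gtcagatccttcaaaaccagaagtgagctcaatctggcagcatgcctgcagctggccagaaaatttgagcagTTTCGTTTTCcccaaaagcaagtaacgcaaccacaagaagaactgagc
Ifi214, chr1:173535958-173536077, minus strand: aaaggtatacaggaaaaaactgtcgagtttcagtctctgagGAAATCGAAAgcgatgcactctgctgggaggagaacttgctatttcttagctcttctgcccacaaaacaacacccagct
Trim30a, chr7:104465194-104465313, minus strand: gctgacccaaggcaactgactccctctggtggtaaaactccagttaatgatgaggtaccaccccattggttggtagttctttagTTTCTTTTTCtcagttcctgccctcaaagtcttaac
Igtp, chr11:58199436-58199555, plus strand: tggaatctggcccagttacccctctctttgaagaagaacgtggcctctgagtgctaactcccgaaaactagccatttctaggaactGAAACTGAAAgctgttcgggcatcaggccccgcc
Isg15, chr4:156200819-156200938, minus strand: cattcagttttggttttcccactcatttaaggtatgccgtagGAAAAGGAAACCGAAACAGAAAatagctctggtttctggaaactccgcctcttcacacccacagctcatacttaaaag
The core began 48 bases before the start site in Slfn8, 79 in Ifi214, 36 in Trim30a and 34 in Igtp. Igtp also had the gamma-activated core 45 bases before its start, and Isg15 had 3 response element cores that overlapped, at 78, 72 and 66 bases. A match is a stretch of letters and not evidence of binding.

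Across the comparisons, member calls were few and all of them were in spleen. With limma and Benjamini-Hochberg adjustment over all genes of a tissue (call at an adjusted p under 0.05, n = 5 in each group except 4 wild-type vehicle spleens), 7 members fell after PCB-153 in labelled knockout spleens, where 2.52% of all genes did, and 2 were lower in labelled knockout than in wild-type PCB-153 spleens, where 0.0787% of all genes were. No member rose in any comparison, and no member was called in liver, where between 0% and 1.45% of all genes were. More members had a lower than a higher mean wherever knockout, or labelled knockout in spleen, was set against wild type. The median log2 difference of the members was -0.30 in PCB-153 livers, -0.06 in vehicle livers, -0.23 in PCB-153 spleens and -0.16 in vehicle spleens, while the median of all genes tested lay within 0.008 of 0 in each of these. Without single libraries these medians ran from -0.39 to -0.14 in PCB-153 livers, from -0.18 to 0.06 in vehicle livers, from -0.28 to -0.19 in PCB-153 spleens and from -0.20 to -0.08 in vehicle spleens.

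**Figure D1:**
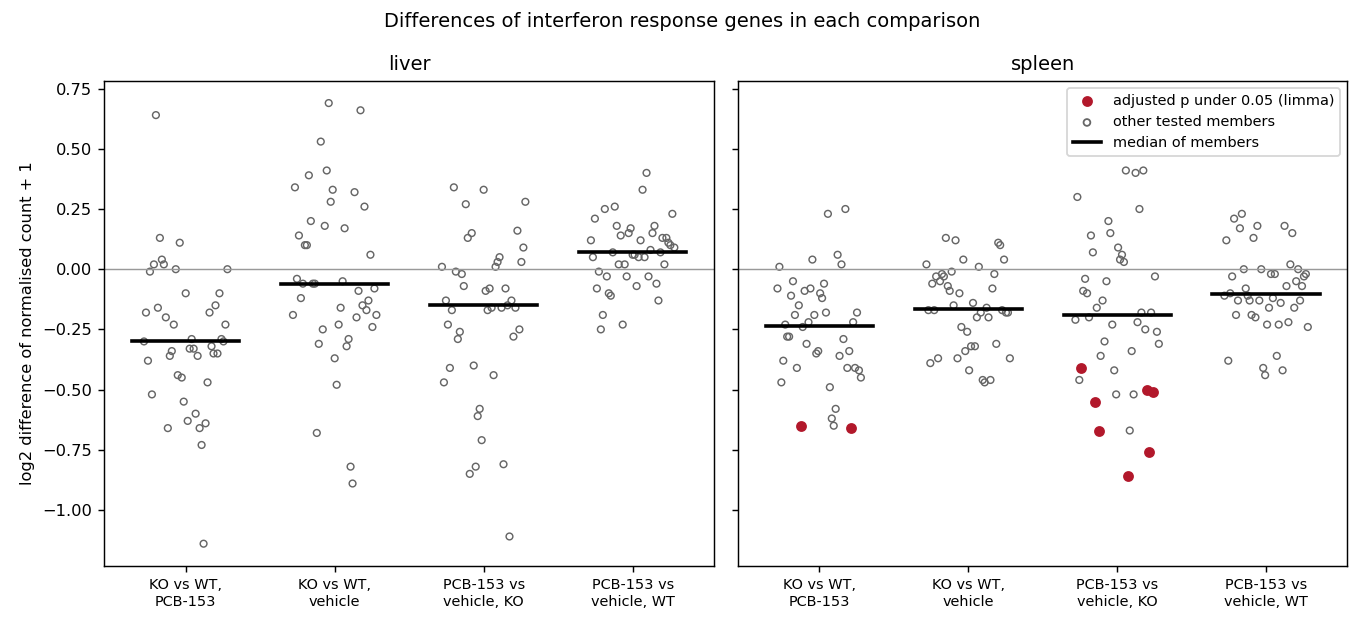
Log2 differences (of normalised count + 1) of the interferon response genes in 4 comparisons of liver (43 members, left) and spleen (44 members, right); each circle is a member, filled where called, and the bar is the median of the members. Filled points are seen only in spleen, 2 between genotypes after PCB-153 and 7 between exposures in labelled knockout, all below 0.

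In labelled knockout spleens, PCB-153 was accompanied by lower levels of Slfn8 and Slfn5, of the DNA sensor genes Ifi203 and Ifi214, of Trim30a, of the antiviral GTPase gene Mx1 and of the RNA sensor gene Ddx58. These are the 7 members called, in a comparison where 2.52% of all genes were called lower and 2.78% higher. Their log2 differences lay between -0.41 and -0.86. In the group of 9 other interferon-stimulated genes all had a lower mean and 3 fell, in the DNA sensor group all 4 had a lower mean and 2 fell, and no member of the transcription factor, ISG15, IFIT, OAS and PKR, GTPase or chemokine groups passed.

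Slfn8, a member of the schlafen family of growth and antiviral regulators (chromosome 11, 83002158 to 83020810, GRCm38, minus strand), had 445, 480, 389, 389 and 523 normalised counts in labelled knockout PCB-153 spleens, against 655, 744, 692, 711 and 992 in labelled knockout vehicle spleens. The groups did not overlap, and the PCB-153 mean of 445 ± 58.3 compared with 758 ± 134 (SD, n = 5 each) for a log2 difference of -0.76 ± 0.10 (SE, limma adjusted p = 0.00224). Its family member Slfn5 (chromosome 11, 82951349 to 82964840) had 899, 965, 882, 868 and 942 after PCB-153 against 1095, 1409, 1059, 1336 and 1626 under vehicle, again without overlap (-0.50 ± 0.11, adjusted p = 0.0249). In wild type the same genes lay close together under both exposures, with Slfn8 at 642, 746, 683, 704 and 718 after PCB-153 and 751, 737, 715 and 600 under vehicle. Wild-type Slfn5 was at 1017, 1168, 1229, 1200 and 1174 after PCB-153 and 1282, 1326, 1280 and 940 under vehicle. The difference there was -0.00 for Slfn8 and -0.05 for Slfn5, and neither was called.

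Mx1, whose protein is a dynamin-like GTPase that blocks orthomyxoviruses and is defective in most inbred mouse strains (chromosome 16, 97447035 to 97462907), had 173, 208, 136, 145 and 150 in labelled knockout PCB-153 spleens against 263, 264, 258, 296 and 399 in labelled knockout vehicle spleens. No PCB-153 value reached the lowest vehicle value (-0.86 ± 0.14, adjusted p = 0.00795). Its neighbour and relative Mx2 had 69.9, 90.1, 58.1, 36.1 and 71.1 against 81.4, 101, 89.0, 97.8 and 140, which overlapped, and just missed the threshold (-0.67 ± 0.20, adjusted p = 0.0523). Ddx58, which encodes the cytosolic RNA sensor RIG-I (chromosome 4, 40203773 to 40239828), had 709, 1055, 922, 841 and 1030 against 1026, 1204, 1203, 1111 and 1524, with 2 PCB-153 libraries inside the vehicle range (-0.41 ± 0.11, adjusted p = 0.0314).

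Ifi203 and Ifi214 belong to the Ifi200 family of DNA-binding proteins, and their genes lie in 1 cluster on chromosome 1 (173920407 to 173942672 and 173519717 to 173535957). Ifi203 had 1931, 2241, 1926, 1871 and 2586 after PCB-153 and 2944, 3178, 2906, 2885 and 3428 under vehicle in labelled knockout spleens (-0.55 ± 0.11, adjusted p = 0.0212). Ifi214 had 346, 454, 354, 353 and 518 after PCB-153 and 556, 617, 612, 571 and 869 under vehicle (-0.67 ± 0.13, adjusted p = 0.0203). For both genes all PCB-153 values lay below all vehicle values. Trim30a, a ubiquitin ligase of the TRIM family that dampens inflammatory signalling (chromosome 7, 104409025 to 104465193), had 1282, 1464, 1179, 1229 and 1566 after PCB-153 and 1737, 2015, 1718, 1840 and 2255 under vehicle (-0.51 ± 0.11, adjusted p = 0.0247). In all, 6 members had groups that did not overlap, all lower after PCB-153, where 2.81% of all genes did so on the lower side.

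**Figure D2:**
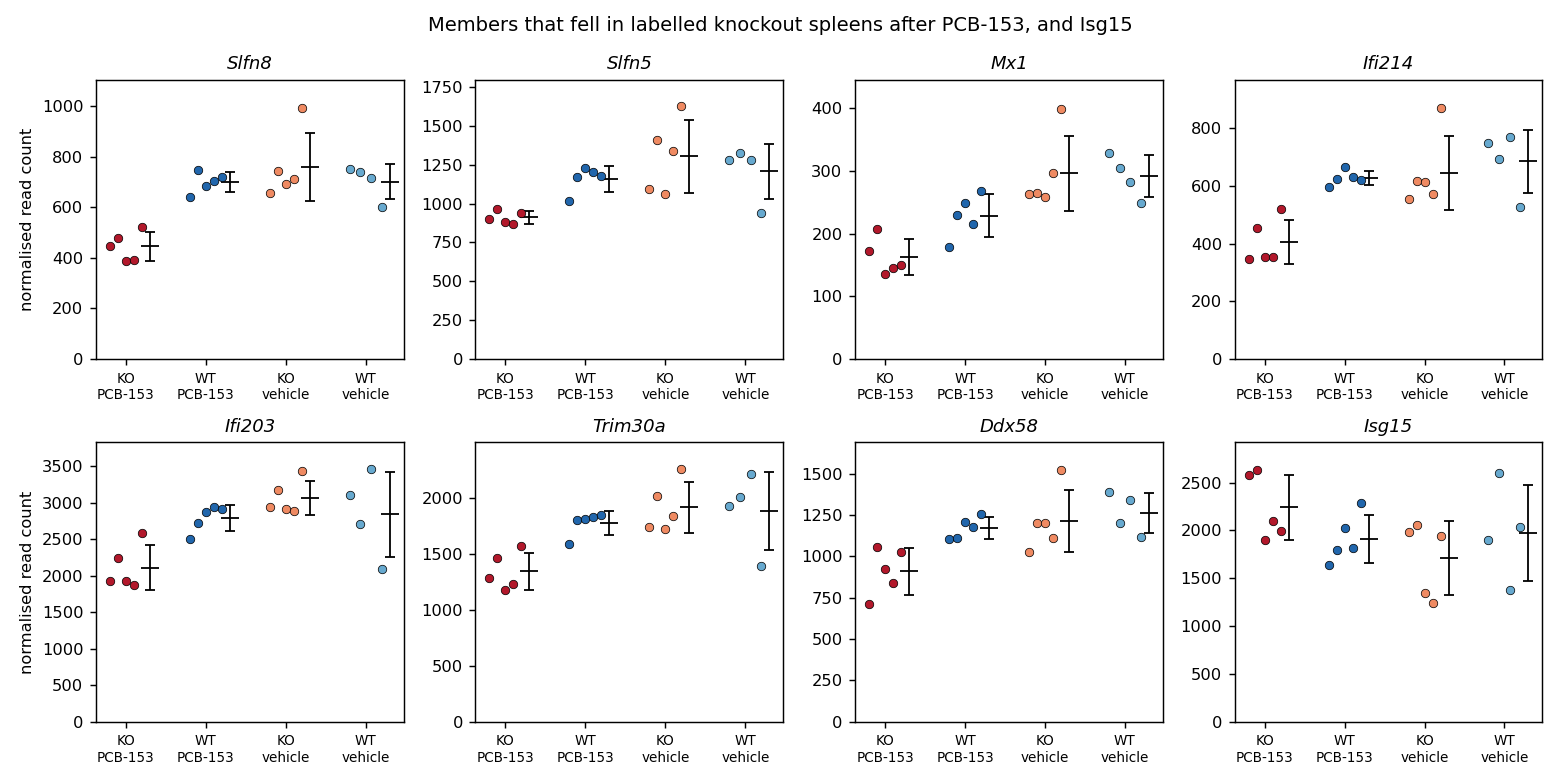
Normalised read counts in spleen (vertical axes from 0) of the 7 members that fell in labelled knockout spleens after PCB-153, and of Isg15; each point is a library, the 4 groups stand side by side, and the bar with whiskers is the mean ± SD (n = 5, or 4 for wild-type vehicle). The labelled knockout PCB-153 points lie lowest for Slfn8, from 389 to 523, and on the high side for Isg15, from 1902 to 2634.

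Other members lay the opposite way in the same spleens without passing the adjusted test. Isg15, a ubiquitin-like protein that is joined to other proteins, had 2578, 2634, 1902, 2100 and 1989 in labelled knockout PCB-153 spleens and 1981, 2058, 1351, 1239 and 1941 in labelled knockout vehicle spleens. The groups overlapped (0.41 ± 0.16, adjusted p = 0.126). Rsad2, which encodes the antiviral enzyme viperin, had 12276, 15595, 8907, 9496 and 10037 against 10180, 10696, 7437, 5764 and 8321 (0.41 ± 0.16, adjusted p = 0.122), and Oas3, one of the enzymes that make the signal for RNase L, had 2706, 1771, 1874, 2031 and 1967 against 1897, 1749, 1212, 1288 and 1756 (0.40 ± 0.14, adjusted p = 0.101). With Cmpk2, these were the 4 members on the higher side at an unadjusted p under 0.05, beside 14 on the lower side, where 12.5% and 11.5% of all genes were. The direction was thus not shared by all members, with 31 means lower and 13 higher after PCB-153, where 51.3% of all genes had a lower mean.

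Apart from Mx1 and Ddx58, the members that fell lay in 3 clusters of related genes, in each of which neighbours fell too. Over all genes 2.52% fell and 2.78% rose in this comparison. Within 500 kb of Ifi203, 9 of 16 other genes tested fell after PCB-153 and none rose, all but the predicted gene Gm18752 from the Ifi200 family, among them Ifi209 (-0.68), Ifi213 (-0.73), Ifi208 (-0.62) and Mndal (-0.56). Within the same distance of Trim30a, 6 of 16 fell and none rose, all of the TRIM family, with Trim30b at -0.70 and Trim30d at -0.57. Around Slfn5, 2 of 26 fell, Slfn2 (-0.41) and Slfn8, and 2 rose, Rffl and Gm11427. Of 7 genes around Mx1 and 9 around Ddx58, 0 were called. These windows were chosen after the values were seen. Related genes of a cluster share some sequence, which reached 14.6% of the 50-base words of Ifi214 and Slfn8, 12.2% of Ifi203 and 6.0% of Trim30a, so part of a read count may come from a relative. In wild-type spleens none of the named neighbours was called between exposures, where limma called no gene at all. The difference there was -0.42 for Gm18752, against -0.88 in labelled knockout, and -0.24 for Slfn2. For the other neighbours with a value given here it lay between -0.11 (Trim30b) and -0.06 (Ifi209).

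Beyond the members, the wider list of 60 tested interferon-stimulated genes had 15 that fell and 2 that rose after PCB-153 in labelled knockout spleens. Of all genes 2.52% fell and 2.78% rose there. Apart from Sp100, Samd9l, Phf11a, Phf11b and Ms4a4c, the genes of this list that fell are cluster neighbours already counted above. The 4 with the smallest p were Trim30b, Ifi209, Mndal and Trim12a (-0.44, adjusted p = 0.0161). The 2 that rose were Uba7 (0.30, adjusted p = 0.0444) and Ube2l6 (0.47, adjusted p = 0.0459), the activating and conjugating enzymes that attach the Isg15 protein to its targets. Of 13 genes listed as negative regulators, Isg20 (0.50, adjusted p = 0.0261) and Cish (0.53, adjusted p = 0.0288) rose. Samhd1, which depletes nucleotides in infected cells, fell (-0.34, adjusted p = 0.0272). Isg20 is itself an interferon-stimulated gene of an antiviral exonuclease, so its place in that list does not make it an inhibitor. Gbp9 (-0.47, adjusted p = 0.0263) was the 1 call among 13 further GTPases. No call was made among 9 receptor and kinase genes, 17 sensors and adaptors, 8 further transcriptional regulators or 20 antigen presentation genes. Of 21 interferon genes only Ifng was high enough to be tested in spleen, and none in liver.

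Cell type markers moved in the same comparison. Of 7 B cell genes 6 fell, among them Cd79a (-0.64, adjusted p = 0.0212) and Ms4a1 (-0.60, adjusted p = 0.0212), with a list median of -0.58, close to the differences of the called members. The summed level of these 7 genes ran from 20173 to 34007 in labelled knockout PCB-153 spleens and from 34231 to 44691 in labelled knockout vehicle spleens, without overlap. Of 10 genes of plasmacytoid dendritic cells, which make type I interferon and of whose list Bst2 and Irf7 are also members, 3 fell, including Siglech (-0.76, adjusted p = 0.0272), with summed levels of 5481 to 7548 against 7393 to 8339. Among 8 neutrophil genes 5 rose, with sums of 4276 to 8103 against 3401 to 4861, and among 7 erythroid genes 3 rose, with sums of 883077 to 1269254 against 606087 to 956917. In wild-type spleens neutrophil sums were 5074 to 6243 after PCB-153 and 5238 to 6967 under vehicle, above all labelled knockout vehicle sums. In the same order, wild-type B cell sums were 33471 to 35637 and 32488 to 39906, and erythroid sums 712687 to 892915 and 632013 to 1019778. Siglech ran from 392 to 624 in labelled knockout vehicle, 198 to 455 in labelled knockout PCB-153 and 222 to 330 in wild-type spleens. Of 7 conventional dendritic cell genes 1 fell, Cd209a, and none of 8 T cell genes was called (median -0.16). The pancreas list of 7 genes, kept as a sign of neighbouring tissue, summed to 7672, 588, 751, 60741 and 871 after PCB-153 (libraries 1 to 5) and to 489 to 627 under vehicle. Libraries 4 and 1 were thus far above the others, and of the list Ctrb1, which encodes a digestive enzyme, was called higher (5.62, adjusted p = 0.0482). No marker of these lists was at 0 throughout the spleens. Their part in the result was not tested.

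Single libraries decided the number of calls in this comparison. Slfn8 and Mx1 passed in all 30 alternative settings, with adjusted p-values up to 0.0433 and 0.045. The count was 2, these same genes, without labelled knockout PCB-153 library 1, 3 or 4 or labelled knockout vehicle library 5, where 0.0525% to 0.22% of all genes were called in either direction. It was also 2, again these genes, without labelled knockout PCB-153 libraries 1 and 4 together (0.131% of all genes). It was 4 without labelled knockout vehicle library 3 (0.22% of all genes), and 13, of which Oas3 and Cmpk2 were higher, without labelled knockout PCB-153 library 2, where 8.65% of all genes were called lower and 10.8% higher. With all libraries 5.3% of all genes were called in either direction. On recovered reads edgeR called the same 7 lower (2.35% of all genes) and DESeq2 10 (4.18%), the 7 with Oas2, Mx2 and Ifit3b. In the authors' deposited table of this comparison the same 10 members were lower at an adjusted p under 0.05, where 4.68% of genes with an adjusted p were.

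Between genotypes in PCB-153 spleens, Slfn8 and Ifi214 were lower in labelled knockout, where 0.0787% of all genes were called lower and the same share higher. Both comparisons use the labelled knockout PCB-153 libraries, so they are not independent. Slfn8 averaged 445 ± 58.3 in labelled knockout and 698 ± 39.1 in wild type (SD, n = 5 each; -0.66 ± 0.10, SE, adjusted p = 0.00721), and this call held in all 30 alternative settings. Ifi214 had 346, 454, 354, 353 and 518 in labelled knockout against 595, 623, 665, 631 and 618 in wild type, without overlap (-0.65 ± 0.13, adjusted p = 0.0392). Its call held in 14 of 30 alternatives and was lost without wild-type vehicle library 1, any wild-type PCB-153 library, labelled knockout vehicle library 2 or 3, or labelled knockout PCB-153 library 1, 3 or 4, each of which left 1 call and between 0.0525% and 0.273% of all genes called. EdgeR also called these 2 lower (0.0944% of all genes), and DESeq2 called Ifi203 and Trim30a besides (0.467%). The groups also did not overlap for Slfn5, Trim30a and Ddx58, making 5 members lower without overlap, where 0.798% of all genes were.

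Most of the other members were also lower in labelled knockout PCB-153 spleens without passing. Of 44 means 38 were lower, where 51.2% of all genes were, and 19 members were lower at an unadjusted p under 0.05, where 5.3% were. Oas1a, an enzyme that senses double-stranded RNA, had 206, 151, 217, 188 and 270 in labelled knockout against 251, 326, 342, 338 and 353 in wild type (-0.65 ± 0.18, adjusted p = 0.155). It shares 57.6% of its 50-base words with other genes, which leaves its level uncertain. Ifi203 and Trim30a each differed by -0.41 (adjusted p = 0.14 for each). B cell sums were 20173 to 34007 in labelled knockout and 33471 to 35637 in wild type, and the part of this difference in the result was not tested. Among the further interferon-stimulated genes Ifi209 (-0.60, adjusted p = 0.0334) and Trim12a (-0.40, adjusted p = 0.0392) were lower, and the signalling inhibitor Cish was higher (0.77, adjusted p = 0.0116).

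In vehicle spleens no member was called between genotypes, where 0.0315% of all genes were. At an unadjusted p under 0.05, 0 members were higher and 8 lower, where 6.03% and 4.45% of all genes were, and edgeR and DESeq2 also called 0. The smallest unadjusted p-values belonged to the GTPase genes Ifi47 and Irgm1, which restrain intracellular microbes. Ifi47 had 874, 888, 898, 1059 and 1162 in labelled knockout against 1263, 1730, 1017 and 1110 in wild type (libraries 1, 3, 4 and 5), a difference of -0.37 ± 0.15 (adjusted p = 0.42). Irgm1 had 1305, 1310, 1214, 1532 and 1510 against 1681, 2184, 1426 and 1648 (-0.32 ± 0.13, adjusted p = 0.42). In both, the highest wild-type value was that of library 3.

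After PCB-153 in wild-type spleens limma called no member, as it called no gene at all (0%). At an unadjusted p under 0.05, 1 member was higher and 3 lower, where 2.36% and 1.45% of all genes were. EdgeR and DESeq2 called 0 members, and of all genes edgeR called 0 and DESeq2 3. Herc6, the mouse ligase for the Isg15 protein, had 1082, 1127, 1007, 1043 and 1025 after PCB-153 against 882, 1099, 862 and 794 under vehicle (0.23 ± 0.09, adjusted p = 0.943). Mx1 had 179, 230, 249, 215 and 269 against 329, 305, 283 and 249 (-0.36 ± 0.14, adjusted p = 0.943), lower on average as in labelled knockout but with overlap. Whether the PCB-153 difference itself differed by genotype was tested as an interaction, which was -0.76 ± 0.15 for Slfn8 (unadjusted p = 5.96e-05, adjusted p = 0.417) and -0.54 ± 0.16 for Ifi203 (adjusted p = 0.417). No member was called for it with limma or edgeR, which called 0% of all genes. At an unadjusted p under 0.05, 6 members were lower and 0 higher, and 9.85% of all genes passed in either direction. DESeq2 called Slfn8 (adjusted p = 0.00363), where it called 0.063% of all genes lower, so this call for Slfn8 depends on the tool.

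The transcription factors and classic antiviral genes of spleen are given here for every library, whatever their result. Irf7, the factor that amplifies type I interferon production, had in PCB-153 spleens 1633, 1593, 1433, 1244 and 1646 in labelled knockout against 1272, 1570, 1808, 1589 and 2031 in wild type, and in vehicle spleens 1468, 1579, 1070, 1341 and 1986 in labelled knockout against 1741, 2286, 1519 and 1838 in wild type. Irf9, the DNA-binding partner of STAT2, had in PCB-153 spleens 2352, 1871, 2235, 2098 and 2032 in labelled knockout against 1964, 2179, 2082, 2215 and 2610 in wild type, and in vehicle spleens 2129, 2163, 1715, 1911 and 2274 in labelled knockout against 2155, 2533, 2072 and 2192 in wild type. Groups overlapped throughout for both, and the largest difference was -0.32 for Irf7 between vehicle groups (adjusted p = 0.471). Stat2 itself had in PCB-153 spleens 1381, 1492, 1311, 1168 and 1479 in labelled knockout against 1444, 1572, 1434, 1560 and 1989 in wild type, and in vehicle spleens 1412, 1547, 1404, 1668 and 1711 in labelled knockout against 1791, 1789, 1624 and 1732 in wild type. It was lower on average in labelled knockout under both exposures (-0.22 and -0.17, adjusted p = 0.337 and 0.535).

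In the ISG15 system, Usp18, which removes Isg15 from proteins and restrains the type I receptor, had in PCB-153 spleens 411, 290, 330, 343 and 323 in labelled knockout against 302, 367, 434, 391 and 434 in wild type, and in vehicle spleens 341, 388, 241, 312 and 484 in labelled knockout against 346, 540, 328 and 379 in wild type. Isg15 in the wild-type spleens had 1638, 1795, 2024, 1814 and 2291 after PCB-153 and 1895, 2602, 1381 and 2035 under vehicle. Each pair of groups overlapped for both genes. Among the IFIT genes, whose proteins bind foreign RNA, Ifit1 had in PCB-153 spleens 406, 447, 236, 344 and 351 in labelled knockout against 281, 326, 405, 296 and 414 in wild type, and in vehicle spleens 365, 408, 203, 233 and 429 in labelled knockout against 385, 505, 321 and 306 in wild type. Ifit3b had in PCB-153 spleens 218, 201, 216, 123 and 208 in labelled knockout against 195, 251, 248, 222 and 294 in wild type, and in vehicle spleens 194, 280, 271, 290 and 350 in labelled knockout against 318, 447, 286 and 280 in wild type. It shares 45.0% of its words with other genes, and its lowest value was that of labelled knockout PCB-153 library 4.

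Bst2, the surface protein tetherin that holds budding viruses back, had in PCB-153 spleens 743, 925, 675, 625 and 678 in labelled knockout against 644, 738, 806, 747 and 898 in wild type, and in vehicle spleens 747, 845, 791, 887 and 907 in labelled knockout against 800, 966, 789 and 746 in wild type. Ifi27l2a, a small protein gene of the interferon response, had in PCB-153 spleens 859, 999, 874, 650 and 950 in labelled knockout against 858, 1024, 1204, 891 and 1123 in wild type, and in vehicle spleens 913, 992, 1100, 1121 and 1444 in labelled knockout against 1187, 1167, 923 and 1179 in wild type. Neither was called in any comparison, and the smallest adjusted p was 0.0932 for Ifi27l2a between exposures in labelled knockout (-0.36). Oas3 in wild-type spleens had 1937, 1930, 1913, 1937 and 2110 after PCB-153 and 1441, 2365, 1376 and 1920 under vehicle. The first 4 of these PCB-153 libraries lay between 1913 and 1937, so that library 5 stood apart.

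**Figure D3:**
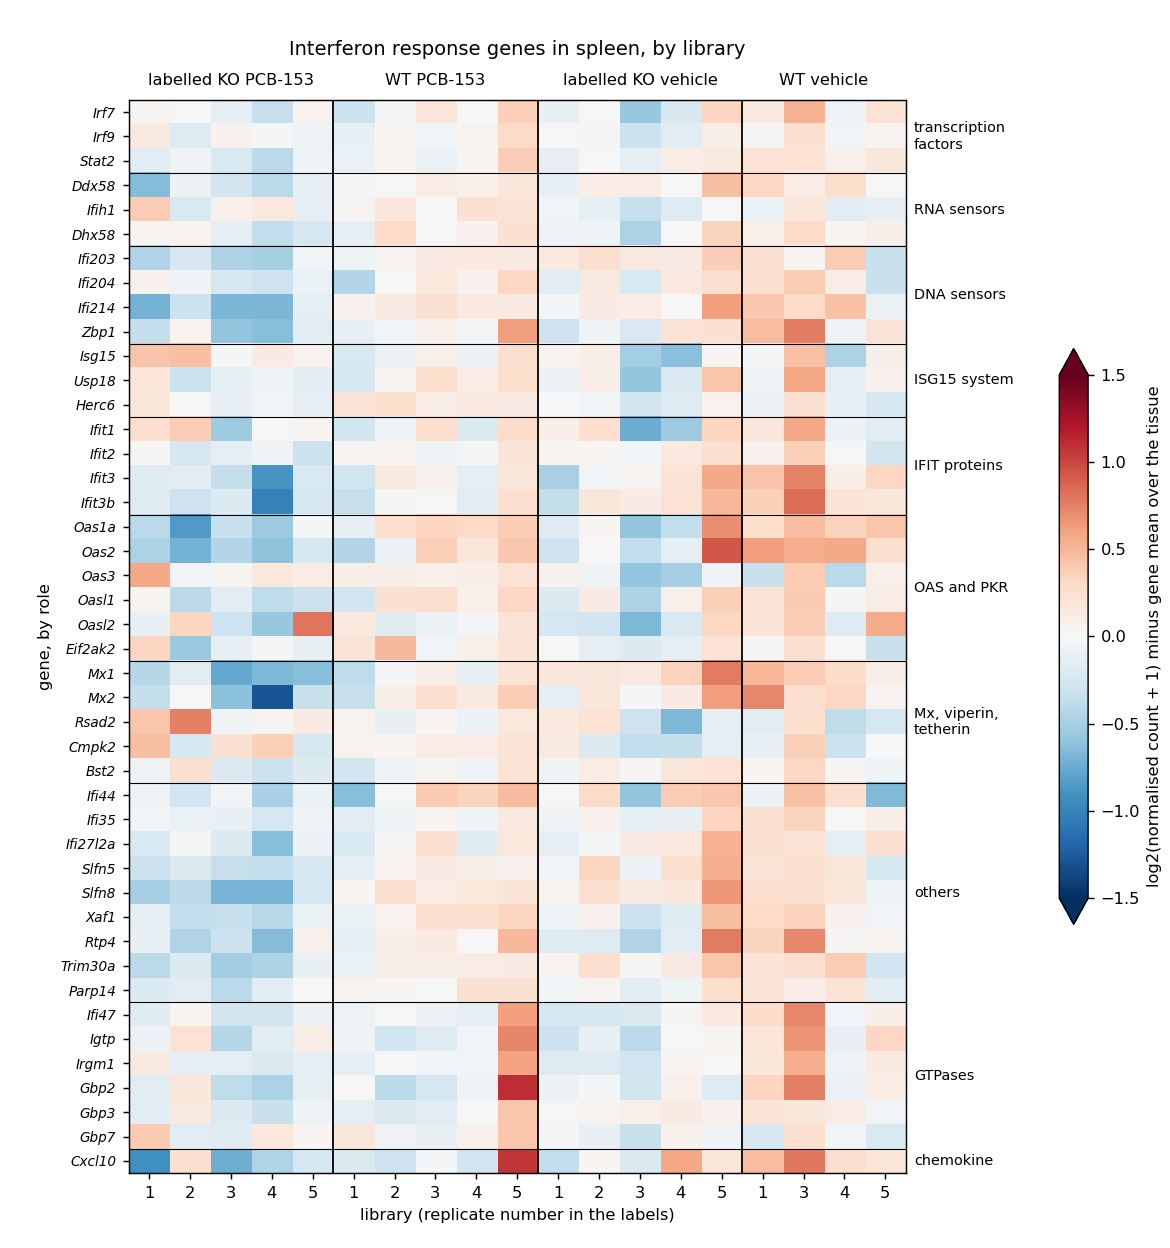
Level of each of the 44 members (rows, grouped by role) in each of the 19 spleen libraries (columns, by group), as log2(normalised count + 1) minus the gene's mean over all spleens; red is above and blue below that mean. Labelled knockout PCB-153 columns are blue for most DNA sensors and others, and the redder columns of the other groups are wild-type PCB-153 library 5, labelled knockout vehicle library 5 and wild-type vehicle library 3.

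In liver no member was called between genotypes after PCB-153, where 1.45% of all genes were (0.854% lower). At an unadjusted p under 0.05, 10 members were lower and 0 higher, where 5.3% and 5.37% of all genes were, and edgeR called 0 members and DESeq2 1, Oas2 (1.29% of all genes were lower by DESeq2). In the authors' deposited table Oas2 was the 1 member with an adjusted p under 0.05, lower as were 1.06% of genes there. Members were lower on average in 35 of 43 cases, where 49.6% of all genes were, with the OAS and PKR group lowest (median -0.65). Oas2 had 87.0, 98.9, 79.3, 120 and 62.2 in knockout against 114, 144, 152, 193 and 137 in wild-type PCB-153 livers, with 1 knockout library inside the wild-type range (-0.73 ± 0.22, adjusted p = 0.116). Oas1a had 73.8, 72.6, 50.6, 78.0 and 56.5 against 95.6, 93.9, 101, 107 and 126, without overlap (-0.66 ± 0.21, adjusted p = 0.147). Oas3, at only 15.2, 9.08, 16.9, 20.4 and 15.2 in knockout against 17.7, 40.3, 33.0, 32.9 and 58.1 in wild type, differed by -1.14 (adjusted p = 0.184). Beyond the members, the neighbouring Oas1b was lower (-1.06 ± 0.21, SE, adjusted p = 0.00735), the 1 call among 57 further interferon-stimulated genes. Oas1a shares 57.6% of its 50-base words with other genes, Oas1b among them, so the levels of Oas1a and Oas1b may not be separate.

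Irf7 had 487, 382, 361, 453 and 394 in knockout against 572, 741, 607, 568 and 727 in wild-type PCB-153 livers, without overlap (-0.63 ± 0.20, adjusted p = 0.166). The 3 members without overlap were Oas1a, Irf7 and Ifi35, all lower, where 1.38% of all genes were. Irf7 was called when only the compared groups were fitted (adjusted p = 0.016) or without knockout vehicle library 5 (adjusted p = 0.0475), and Oas2 without knockout vehicle library 4 (adjusted p = 0.044). In vehicle livers Irf7 had 359, 507, 380, 303 and 785 in knockout against 647, 511, 915, 531 and 536 in wild type, with overlap (-0.48, adjusted p = 0.322). Without wild-type PCB-153 library 5 the call was a different one, Gbp2 higher in knockout by 1.12 (adjusted p = 0.0307), against 0.64 with all libraries (adjusted p = 0.614).

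Between genotypes in vehicle livers no member was called, where 0.607% of all genes were. At an unadjusted p under 0.05, 1 member was higher and 4 lower, where 6.17% and 6.44% of all genes were. EdgeR called 0 members and DESeq2 called Oas2, where it called 0.78% of all genes lower. Oas2 had 81.5, 92.8, 106, 47.1 and 112 in knockout against 196, 131, 173, 145 and 114 in wild type, without overlap (-0.82 ± 0.22, adjusted p = 0.102). Every knockout liver but PCB-153 library 4 thus had less Oas2 than the lowest wild-type liver of the study. Oas2 was named here for its small p-values, and neither comparison was called by limma, whose 1 fit shares the spread between them. The share of all genes that part in this way was not counted. Ifit2, another IFIT gene, stood the other way, at 173, 103, 141, 128 and 131 in knockout against 77.5, 63.4, 83.9, 103 and 91.3 in wild type, 1 of 2 members without overlap (0.69 ± 0.27, adjusted p = 0.287). Its lowest knockout and highest wild-type values both round to 103, so these groups barely part. Of all genes 1.39% did not overlap on the higher and 1.61% on the lower side. All 4 IFIT genes had a higher mean in knockout vehicle livers (median 0.37), and 3 of 4 a lower one in knockout PCB-153 livers (median -0.45).

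After PCB-153 in knockout livers limma called no member, as it called no gene (0%). At an unadjusted p under 0.05, 9 members were lower and 0 higher, where 5.38% and 4.48% of all genes were. EdgeR and DESeq2 called 0 members, and of all genes edgeR called 0 and DESeq2 63. Rsad2 had 205, 75.3, 84.3, 156 and 142 after PCB-153 against 209, 410, 175, 238 and 391 under vehicle (-1.11 ± 0.33, adjusted p = 0.396). Ifi44 had 43.5, 75.3, 23.8, 65.6 and 57.2 against 74.2, 91.8, 70.3, 94.2 and 129 (-0.85 ± 0.27, adjusted p = 0.396). In each of these genes a single PCB-153 library lay inside the vehicle range. Ifit1 had 185, 123, 76.3, 145 and 107 against 160, 284, 165, 192 and 335 (-0.82 ± 0.29, adjusted p = 0.412), and all 4 IFIT genes had a lower mean (median -0.66).

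In wild-type livers the exposures differed least, with no member called by limma, as no gene was (0%). No member passed an unadjusted p under 0.05, where 3.58% of all genes were higher and 3.11% lower. EdgeR and DESeq2 called 0 members, and of all genes edgeR called 0 and DESeq2 1. The smallest unadjusted p-values were those of Oas1a, at 95.6, 93.9, 101, 107 and 126 after PCB-153 against 94.0, 54.3, 111, 69.0 and 76.3 under vehicle (0.40 ± 0.21, adjusted p = 0.717), and of Eif2ak2, which encodes the kinase PKR. Eif2ak2 had 192, 238, 171, 179 and 263 after PCB-153 against 220, 239, 252, 219 and 299 under vehicle (-0.25 ± 0.16, adjusted p = 0.722). For the difference of exposure effects between genotypes no member was called by any of the 3 tools (0% of all genes by limma), and 5 were lower and 0 higher at an unadjusted p under 0.05, where 2.69% of all genes passed in either direction. The smallest p-values were those of Ifit3b and its near copy Ifit3 (-0.88 ± 0.32 and -0.73 ± 0.31, adjusted p = 1.0 for each). Ifit3 had in PCB-153 livers 463, 218, 189, 306 and 225 in knockout against 290, 472, 344, 274 and 493 in wild type, and in vehicle livers 353, 460, 308, 385 and 513 in knockout against 287, 255, 454, 337 and 339 in wild type, and shares 51.2% of its words with other genes. Ifit3b had in PCB-153 livers 218, 94.4, 105, 133 and 135 in knockout against 150, 271, 203, 118 and 270 in wild type, and in vehicle livers 190, 260, 187, 194 and 259 in knockout against 130, 153, 195, 197 and 191 in wild type.

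The remaining transcription factors and ISG15 genes of the liver did not separate the groups. Irf9 had in PCB-153 livers 452, 380, 469, 456 and 455 in knockout against 508, 565, 467, 534 and 731 in wild type, and in vehicle livers 480, 527, 434, 475 and 572 in knockout against 526, 540, 758, 484 and 629 in wild type. Stat2 had in PCB-153 livers 1332, 1681, 1119, 1438 and 1418 in knockout against 1570, 1881, 1128, 1531 and 1413 in wild type, and in vehicle livers 1197, 1290, 1270, 1066 and 1394 in knockout against 1443, 1206, 1958, 1021 and 1328 in wild type. For both, the highest wild-type vehicle value was that of library 3, and no comparison passed. In the ISG15 system, Isg15 had in PCB-153 livers 360, 317, 211, 248 and 231 in knockout against 345, 476, 245, 234 and 459 in wild type, and in vehicle livers 217, 312, 267, 325 and 406 in knockout against 221, 283, 580, 264 and 295 in wild type. Usp18 had in PCB-153 livers 321, 174, 281, 206 and 226 in knockout against 238, 337, 241, 283 and 380 in wild type, and in vehicle livers 194, 282, 178, 195 and 340 in knockout against 198, 229, 388, 314 and 265 in wild type. Their groups overlapped in all comparisons.

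Bst2 in liver had in PCB-153 livers 2059, 2454, 2132, 2149 and 2102 in knockout against 3077, 3024, 2413, 2637 and 2346 in wild type, and in vehicle livers 1842, 2406, 2070, 1902 and 2667 in knockout against 1843, 2501, 3817, 2269 and 2259 in wild type. It was lower on average in knockout PCB-153 livers (-0.30, adjusted p = 0.483) and had the highest level per kb of exon of the 44 members in that organ. Ifi27l2a had in PCB-153 livers 102, 71.7, 63.4, 89.5 and 59.1 in knockout against 137, 158, 120, 122 and 79.3 in wild type, and in vehicle livers 63.2, 75.8, 70.3, 26.8 and 105 in knockout against 69.3, 90.5, 195, 112 and 75.1 in wild type. Its difference was -0.66 between genotypes after PCB-153 and -0.68 under vehicle, with adjusted p-values of 0.433 and 0.359. Mx1 had in PCB-153 livers 54.6, 36.3, 21.8, 44.3 and 19.7 in knockout against 33.2, 69.3, 54.0, 59.6 and 42.4 in wild type, and in vehicle livers 41.2, 38.8, 38.2, 34.2 and 86.4 in knockout against 37.6, 34.9, 49.4, 39.4 and 38.8 in wild type. The highest of these 20 values was that of knockout vehicle library 5.

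**Figure D4:**
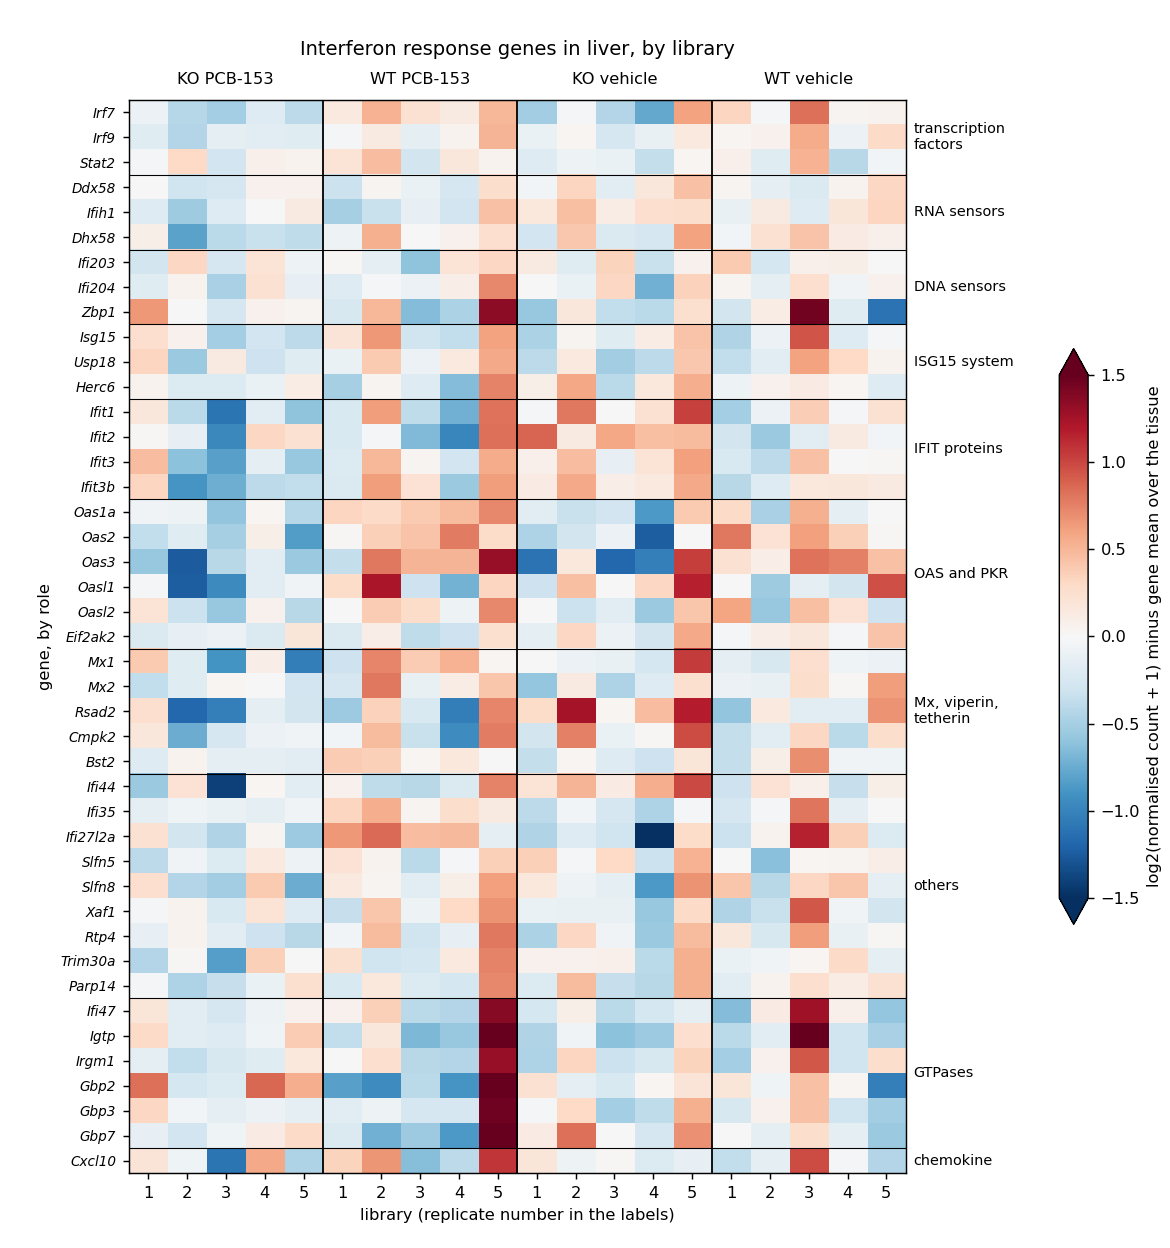
Level of each of the 43 tested members (rows, grouped by role) in each of the 20 liver libraries (columns, by group), as log2(normalised count + 1) minus the gene's mean over all livers; red is above and blue below that mean. The GTPase rows are darkest in wild-type PCB-153 library 5 and, for Igtp, Ifi47 and Irgm1, in wild-type vehicle library 3, while knockout vehicle library 5 is red in most OAS, IFIT and Mx rows, Oas2 being an exception.

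In 3 groups 1 library had the highest value of its group for most members, and its number was the same in both organs. In wild-type PCB-153 library 5, 31 of 43 liver members and 35 of 44 spleen members had the highest value of their group. In wild-type vehicle library 3 it was 28 of 43 and 31 of 44, and in knockout vehicle library 5 (labelled knockout in spleen) it was 33 of 43 and 35 of 44. Over all genes tested these libraries were highest for 17.6% to 30.2% of genes. In the fourth group, knockout PCB-153 (labelled knockout in spleen), the most members led by 1 library were 16 of 43 in liver (library 1) and 18 of 44 in spleen (library 2). Over all genes tested these 2 libraries were highest for 18.1% and 29.8%. On the low side, labelled knockout vehicle spleen 3 had the lowest value of its group for 29 of 44 members and wild-type PCB-153 spleen 1 for 28 of 44. Over all genes tested these 2 were lowest for 21.1% and 21.3%. Labelled knockout PCB-153 spleen 4 and wild-type vehicle spleens 4 and 5 were lowest for 21 of 44 members each (20.4%, 27.9% and 27.1% of all genes). The median deviation of the members from their spleen means was lowest in labelled knockout PCB-153 library 4, at -0.37, and highest in wild-type vehicle library 3, at 0.36. The sources used here do not say whether liver and spleen libraries of 1 number came from 1 mouse.

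The GTPase genes stood out most in wild-type PCB-153 liver 5, and Igtp, Ifi47 and Irgm1 among them also in wild-type vehicle liver 3. Igtp, an immunity-related GTPase induced by interferon gamma (chromosome 11, 58199556 to 58207591), had in PCB-153 livers 978, 715, 703, 765 and 1047 in knockout against 621, 899, 503, 539 and 3650 in wild type, and in vehicle livers 587, 776, 522, 551 and 954 in knockout against 606, 715, 2758, 651 and 572 in wild type. Its 3650 in wild-type PCB-153 library 5 and 2758 in wild-type vehicle library 3 stood above the other 18 livers, which ran from 503 to 1047. Gbp2, a guanylate-binding protein, had in PCB-153 livers 148, 69.0, 71.4, 152 and 121 in knockout against 46.8, 42.5, 62.0, 44.2 and 260 in wild type, and in vehicle livers 97.1, 74.8, 70.3, 84.6 and 94.8 in knockout against 94.0, 78.9, 113, 84.3 and 40.0 in wild type. Gbp3 had in PCB-153 livers 200, 158, 148, 152 and 146 in knockout against 144, 153, 136, 136 and 447 in wild type, and in vehicle livers 160, 199, 114, 124 and 236 in knockout against 137, 169, 220, 131 and 113 in wild type. For both of these wild-type PCB-153 library 5 was the highest of all livers. The median deviation of the 6 GTPase genes from their liver means was 1.54 on the log2 scale in wild-type PCB-153 library 5 and 0.69 in wild-type vehicle library 3, and 0.29 in knockout vehicle library 5. In wild-type vehicle library 3 other roles were high too, with Cxcl10 at 0.98, the ISG15 system at 0.6 and the transcription factors at 0.56, while the RNA sensors were at -0.19. Its Gbp2, Gbp3 and Gbp7 (113, 220 and 254) lay below the highest knockout livers (152, 236 and 374).

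In spleens of those numbers Igtp, Gbp2 and Cxcl10 were also high. Igtp had 1684 in wild-type PCB-153 library 5 and 1616 in wild-type vehicle library 3, where the other 7 wild-type spleens lay between 824 and 1258. Gbp2 had in PCB-153 spleens 562, 712, 483, 453 and 572 in labelled knockout against 634, 479, 525, 607 and 1360 in wild type, and in vehicle spleens 595, 618, 523, 667 and 550 in labelled knockout against 789, 1065, 590 and 681 in wild type. The chemokine gene Cxcl10, which draws T cells, had in PCB-153 spleens 114, 257, 131, 159 and 180 in labelled knockout against 186, 174, 213, 178 and 457 in wild type, and in vehicle spleens 168, 221, 186, 324 and 247 in labelled knockout against 300, 378, 259 and 247 in wild type. In liver Cxcl10 had in PCB-153 livers 66.8, 55.4, 26.8, 86.9 and 41.9 in knockout against 73.8, 92.8, 37.0, 44.2 and 124 in wild type, and in vehicle livers 65.9, 54.9, 59.0, 50.3 and 53.5 in knockout against 44.6, 53.0, 116, 56.9 and 42.5 in wild type. In both organs its highest wild-type PCB-153 value was that of library 5 and its highest wild-type vehicle value that of library 3.

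**Figure D5:**
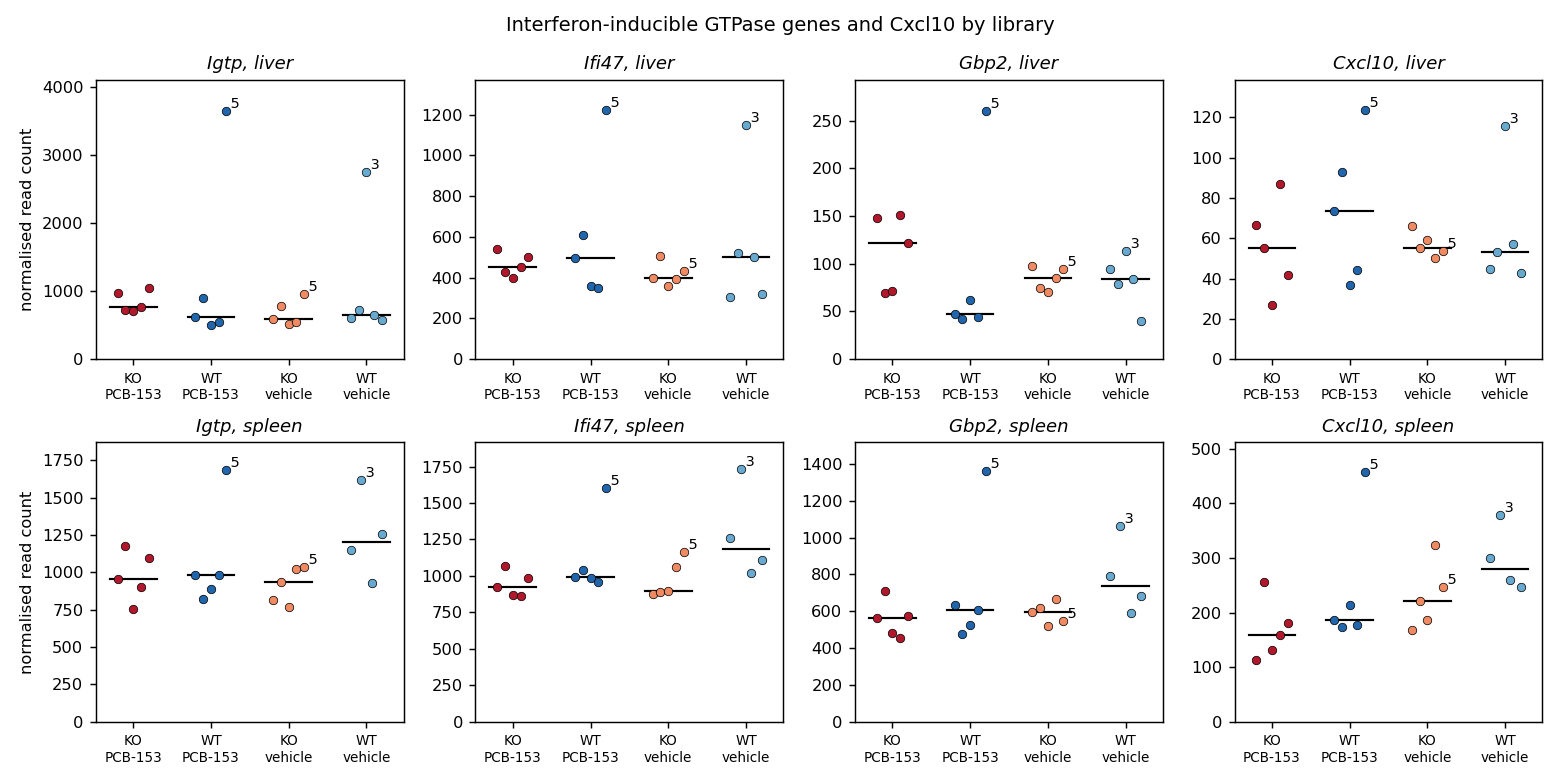
Normalised read counts (vertical axes from 0) of Igtp, Ifi47, Gbp2 and Cxcl10 in liver (top) and spleen (bottom) by group, KO standing for knockout in liver and labelled knockout in spleen; each point is a library, the line is the group median, and the numbers mark wild-type PCB-153 library 5, wild-type vehicle library 3 and knockout vehicle library 5. Liver Igtp is at 3650 and 2758 in the marked wild-type libraries and at most 1047 in the others.

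Genes outside the set, named after their values were seen, ran along. The GTPase gene Tgtp1 had 3463 in wild-type PCB-153 liver 5 and 1458 in wild-type vehicle liver 3, against 152 to 313 in the other 8 wild-type livers. In spleen Ifng, the interferon gamma gene, had 31.6 (47 reads) in wild-type PCB-153 library 5 and 23 (22 reads) in wild-type vehicle library 3, against 3.73 to 13.5 in the other 7 wild-type spleens. In liver Ifng had 0 reads and 1 read in these libraries. Summed T cell markers in spleen were 6007 in wild-type PCB-153 library 5 and 5478 in wild-type vehicle library 3, where the other wild-type spleens ran from 5048 to 6932. Their natural killer cell sums were 782 and 854, within the 582 to 1041 of the other wild-type spleens.

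Library 5 of the knockout vehicle group (labelled knockout in spleen) had another pattern. Its Mx, viperin and tetherin genes lay at a median of 0.98 above their liver means, its IFIT genes at 0.59 and its OAS and PKR genes at 0.49, while its Cxcl10 was 0.12 below. In spleen that library had its largest deviations in the 9 genes of other roles (0.45), the IFIT genes (0.41) and the OAS and PKR genes (0.34), with the GTPases at 0.02. In spleen its Oas2 was 591 where the other 4 labelled knockout vehicle spleens had 240 to 307.

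Single libraries moved the members' medians. The median difference of the members between PCB-153 and vehicle wild-type livers was 0.07 with all libraries, -0.09 without wild-type PCB-153 library 5 and 0.16 without wild-type vehicle library 3. Igtp in the same comparison differed by 0.06 with all libraries (adjusted p = 0.971), by -0.45 without wild-type PCB-153 library 5 and by 0.49 without wild-type vehicle library 3. Between genotypes in PCB-153 livers the median of -0.30 became -0.14 without wild-type PCB-153 library 5 and -0.19 without knockout PCB-153 library 3, and in vehicle livers the median of -0.06 became 0.06 without wild-type vehicle library 3, 0.03 without knockout vehicle library 4 and -0.18 without knockout vehicle library 5. In vehicle spleens the median of -0.16 became -0.08 without wild-type vehicle library 3 or without labelled knockout vehicle library 3.

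Levels per kb of exon, compared within an organ, ordered the members differently in liver and spleen. In liver Bst2 (2656 normalised counts per kb on average) stood far above Igtp (473) and Isg15 (416), which overlapped each other between libraries (249 to 1805 and 279 to 767). Slfn8 (6.66) and Oas3 (3.72) were the lowest tested, and Ifi214 was at 0.927. In spleen Isg15 (2593), Ifi27l2a (2212) and Rsad2 (2174) led with overlapping ranges, before Bst2 (872, range 692 to 1069). Mx1 (64.0), Mx2 (26) and Ifi44 (12.1) were lowest there.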

How the data were processed

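The analysis covered 20 liver libraries and 19 spleen libraries, with separate library sets for the organs. Per the labels, RNA was extracted from frozen tissue and sequenced on a HiSeq4000, and both a TruSeq RNA kit and a TruSeq stranded mRNA kit are named, and no source used here gives the strand setting, so reads of antisense partners may not be told apart. Tools and builds named in the submitters' processing notes are mm10, STAR 2.6.0, featureCounts, FastQC and DESeq2 3.8. The expression signal deposited by the authors is a table per organ of read counts divided by a size factor, recognised by its values: they came out as whole reads, within 0.05 of a read, for 100.0% of values in each library. The authors' deposited tables of comparisons give log2 fold changes, with p-values and adjusted p-values in columns headed as DESeq2 writes them, per the file headers. For knockout against wild type in vehicle livers, and labelled knockout against wild type in PCB-153 spleens, these tables hold called genes only.

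The main test was limma 3.58.1 (R 4.3.3) on log2(value + 1), for genes with a mean of at least 10 (16155 in liver, 19058 in spleen), in 1 fit per organ over 4 groups, with two-sided p-values adjusted by the Benjamini-Hochberg method and called under 0.05. Every log2 difference is on that scale, which understates changes of low genes. The deposited values are not counts, so edgeR 4.0.16 and DESeq2 1.42.0 on recovered reads were alternatives, beside other pseudocounts, filters, quantile normalisation, the compared groups alone, a replicate block and each library left out. The procedure was tested on simulated data. Gene positions and lengths came from GENCODE M21 (GRCm38). The members and lists were chosen with earlier results of these data known. Values of single libraries are given for called members, for the 2 members with the smallest p in each comparison, for members in which 1 library stood apart, and for 12 members fixed by name. For some of these genes only part of the libraries is given. Counting errors at depths of 15.23 to 29.52 M reads are small for most members, and the spread between libraries limits the precision.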

Additional observations from a re-analysis of the deposited data

Results flagged for a closer look

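Among 348 sets of values of 1 member in 1 group, 32 (9.2%) held a library far from the rest by Dixon's ratio on the log2(normalised count + 1) scale, 23 high and 9 low. The critical values mark about 1 in 20 independent sets by chance. These sets share libraries and hold members that vary together, so the share cannot be read as an excess over chance. In liver 12 of 172 sets were marked and in spleen 20 of 176. On the counts themselves 42 sets were marked, 31 of them in both ways; among the 11 marked on counts only was Igtp in wild-type PCB-153 liver 5, with a ratio of 0.874 against a critical value of 0.71.

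In liver, wild-type PCB-153 library 5 stood apart on the log2 scale for 3 GTPase genes, with 447 for Gbp3 (next highest 153), 260 for Gbp2 (next 62.0) and 652 for Gbp7 (next 182). Wild-type vehicle library 3 stood apart for Igtp at 2758 (next 715), Ifi35 at 719 (next 410), Xaf1, a promoter of cell death, at 303 (next 152) and Cxcl10 at 116 (next 56.9). Knockout vehicle library 5 did so for Mx1 at 86.4 (next 41.2). In knockout PCB-153 livers Bst2 was 2454 in library 2 (next 2149), Gbp3 was 200 in library 1 (next 158) and Irf9 was low in library 2 at 380 (next lowest 452). Slfn5 was low in wild-type vehicle library 2 at 99.6 (next 154).

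In spleen, wild-type PCB-153 library 5 stood apart on the high side for 8 members: Igtp (1684), Ifi47 (1603), Irgm1 (2270), Gbp2 (1360), Cxcl10 (457), Zbp1, a sensor of nucleic acids in Z form (677), Stat2 (1989) and Oas3 (2110). Labelled knockout vehicle library 5 did so for Ifi214 (869), Oas2 (591) and Rtp4 (493), and wild-type vehicle library 3 for Ifih1 (868), the gene of the RNA sensor MDA5. Irgm1 was high in labelled knockout PCB-153 library 1 (1644). On the low side were Ifit3 (250) and Ifit3b (123) in labelled knockout PCB-153 library 4, Trim30a (1584), Oas1a (251) and Slfn5 (1017) in wild-type PCB-153 library 1, Ifi27l2a (923) in wild-type vehicle library 4 and Slfn5 (940) in wild-type vehicle library 5. The cause was not tested.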

How the results depend on the processing

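The number of members called was 0 in all settings for spleen between genotypes under vehicle, for both exposure comparisons of liver, for PCB-153 in wild-type spleens and for the liver interaction. In PCB-153 livers the count of 0 between genotypes became 1 with the compared groups only (Irf7), with DESeq2 (Oas2) and without wild-type vehicle library 3 and wild-type PCB-153 library 5 together (Gbp2, higher), an alternative chosen after seeing the data; leaving out single libraries gave 0 to 1. In vehicle livers DESeq2 gave 1 (Oas2). In PCB-153 spleens the count of 2 between genotypes was 1 with no filter, with the compared groups only and without those wild-type libraries, 4 with DESeq2, and 1 to 3 without single libraries. After PCB-153 in labelled knockout spleens the count of 7 was 2 to 13 without single libraries and 6 to 10 under the other settings. Without labelled knockout PCB-153 libraries 1 and 4, an alternative added after seeing their pancreas genes, these counts were 1 and 2. In the spleen interaction DESeq2 gave 1, Slfn8. The causes were not tested.

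Same-numbered libraries of different groups correlated with a median r of 0.03 in liver (-0.38 to 0.45) and 0.06 in spleen (-0.23 to 0.27). Differently numbered libraries of different groups had a median r of -0.01 in each organ (-0.48 to 0.5 in liver, -0.32 to 0.43 in spleen). These ranges overlap, so they cannot decide whether libraries of 1 number share a litter or batch. With a replicate block 1 member was called between genotypes in PCB-153 spleens, in place of 2, and 7 after PCB-153 in labelled knockout spleens.

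Igtp in wild-type livers, PCB-153 against vehicle, was 0.06 and changed sign to -0.06, 0.00, -0.03 and -0.08 without wild-type vehicle library 1, 2, 4 or 5, to -0.45 without wild-type PCB-153 library 5 and to -0.02 without wild-type vehicle library 3 and wild-type PCB-153 library 5 together; single omissions spanned -0.45 to 0.49. Of 1165 alternative values of 39 gene results, 1092 kept their direction and side of the threshold, 49 lost and 18 gained the call. Over all genes the number called after PCB-153 in labelled knockout spleens was 1010, against 10 to 3702 without single libraries, 982 with edgeR, 2027 with DESeq2, 232 with no filter and 184 with the compared groups only. Between genotypes it was 234 (124 to 334) in PCB-153 livers, 98 (49 to 146) in vehicle livers, 30 (10 to 119) in PCB-153 spleens and 6 (4 to 22) in vehicle spleens, and with DESeq2 380, 275, 228 and 39. Between exposures it was 0 in knockout livers (0 to 3), in wild-type livers and in wild-type spleens, and with DESeq2 63, 1 and 3 in that order. Ranges are for single libraries left out.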

Other observations

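The order of the members by level differed between the organs. Per kb of exon Rsad2 averaged 2174 normalised counts in spleens and 44.1 in livers, while Bst2 averaged 872 in spleens and 2656 in livers; the organs were normalised apart, so these levels are not on 1 scale and only their order within an organ can be read, where Rsad2 ranked 3 of 44 in spleen and 24 of 44 in liver.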
